A study of Homo sapiens with 12 samples.

Results

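The 10 genes described here encode the interchangeable catalytic parts of the proteasome, its interferon-responsive activator and the aminopeptidases that finish the peptides it makes. They were taken by symbol from the 60649 gene IDs that both deposited count tables list: PSMB8, PSMB9 and PSMB10 (the inducible catalytic subunits), PSMB5, PSMB6 and PSMB7 (their constitutive partners), PSME1 and PSME2 (the PA28 activator), and ERAP1 and ERAP2 (the endoplasmic reticulum aminopeptidases). All 10 passed the low-count filter in both experiments.

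The proteasome is a barrel-shaped protease whose beta rings hold 3 kinds of active site. Interferon gamma induces PSMB8, PSMB9 and PSMB10, which are built into new barrels in place of PSMB5, PSMB6 and PSMB7 and form the immunoproteasome, which favours cuts that leave hydrophobic or basic ends suited to MHC class I. The TAP transporter moves the peptides into the endoplasmic reticulum, where ERAP1 and ERAP2 shorten them from the amino end before they are loaded.

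TEAD factors are the DNA-binding partners of the growth co-activators YAP and TAZ, and the study set out to inhibit them. Gene expression was measured by RNA-seq in 12 xenograft tumour samples grown from Cal33, an established squamous carcinoma line of the human head and neck, in 4 groups of 3 libraries. The smTEADi tumours received SW-682, a small molecule, and were set against Vehicle tumours. The pTEADi tumours are labelled DOX+ (doxycycline) and were set against Control tumours labelled DOX-, so an effect of doxycycline itself and of pTEADi cannot be told apart. All 4 groups carry the same cell line, so the model is 1 line of tumour cells. The labels do not say whether Control and Vehicle tumours carry the same introduced construct. The labels name neither the host animals nor any other allele, nor do they say whether each sample was a tumour of its own. The p-values therefore describe the scatter among the deposited samples, and that scatter may be technical.

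Library totals were 13576494 to 15433679 expected counts. The label of a squamous carcinoma was checked with 8 epithelial markers, all detected, whose summed level was 36944 to 55530 CPM in smTEADi, 56689 to 70169 in Vehicle, 59420 to 71381 in pTEADi and 64641 to 76937 in Control (CPM, counts scaled to a fixed library total). smTEADi and Vehicle did not overlap in this sum, and its part in the results was not tested. KRT5, KRT14 and KRT6A made up most of the sum. In edgeR's quasi-likelihood test at an adjusted p of 0.05, 3 of the 8 fell and 0 rose with pTEADi, beside 13.6% and 12.7% of all tested genes. They were KRT17 (log2 fold change -1.31), EPCAM (-1.15) and CDH3 (-0.81). With SW-682, EPCAM (-1.10) and CDH3 (-0.67) fell, beside 3.48% of all tested genes. Both SW-682 calls were lost without smTEADi 3, Vehicle 1 or Vehicle 3. Of 14 leukocyte markers, 7 stayed under 10 counts in every library, among them PTPRC (at most 1 count) and TYROBP (0 counts). The sum of the 14 was 36.1 to 54.1 CPM in smTEADi, 37.9 to 47.7 in Vehicle, 35.1 to 40.9 in pTEADi and 48.8 to 74.6 in Control, so pTEADi lay below Control. CD68 and CD74 made up most of this sum, with TMM-scaled means of 12.6 and 16.9 CPM in pTEADi, against 21.6 and 25.4 CPM in Control. CSF1R was lower too (1.46 against 3.82 CPM), while ITGAM (4.59 against 4.22) and CD14 (4.14 against 4.25) differed little. Whether the sum of the 14 moves with the members' results was not tested. Of 7 endothelial markers, 6 stayed under 10 counts, KDR and EMCN at 0, so their sum was nearly VWF alone. It was 35.8 to 60.7 CPM in smTEADi, 17.1 to 32.5 in Vehicle, 29.7 to 41.1 in pTEADi and 13.3 to 21.7 in Control, higher without overlap in both inhibited groups. Of 8 fibroblast markers, 4 stayed under 10 counts in every library, and the sums of the 8 overlapped in both experiments. COL1A1 made up most of these sums, with means of 76.7 CPM in Vehicle and 110 CPM in pTEADi (scaled by TMM). In bulk tumour tissue, fewer cells of a type and less RNA per cell cannot be told apart. The markers are human genes counted against the human genome, and how reads of the host were handled is not stated. The leukocyte, endothelial and fibroblast sums therefore do not measure host cells, and low counts do not show that such cells were absent.

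Promoter windows of 8 of the 10 members were found among RefSeq windows that reach from 250 bases before to 50 bases after a transcription start (GRCh38.p14). They were searched on both strands for 3 strings of letters: GAAA followed by any 2 bases and GAAA again, a form of the interferon-stimulated response element (ISRE) bound by IRF factors, TTCNNNGAA, the gamma-activated sequence (GAS) of interferon-responsive genes, and GGAATG, the core bound by TEAD factors. The windows below are printed because they hold ISRE letters or because they set the inducible PSMB9 beside its divergent neighbour TAP1 and the inducible PSMB8 beside the constitutive PSMB5. The windows of PSME1 and of start 1 of ERAP1 also hold ISRE letters and are not printed. Bases in capitals are matches of any of the 3 strings, read 5′ to 3′ on the gene's strand. The windows are chr6:32843998-32844297 (minus strand) for start 2 of PSMB8, chr6:32853942-32854241 (plus) for PSMB9, chr6:32853655-32853954 (minus) for start 1 of TAP1, chr16:67936801-67937100 (minus) for PSMB10, chr14:23034851-23035150 (minus) for start 2 of PSMB5, chr14:24146561-24146860 (minus) for PSME2 and chr5:96876250-96876549 (plus) for start 2 of ERAP2.
PSMB8: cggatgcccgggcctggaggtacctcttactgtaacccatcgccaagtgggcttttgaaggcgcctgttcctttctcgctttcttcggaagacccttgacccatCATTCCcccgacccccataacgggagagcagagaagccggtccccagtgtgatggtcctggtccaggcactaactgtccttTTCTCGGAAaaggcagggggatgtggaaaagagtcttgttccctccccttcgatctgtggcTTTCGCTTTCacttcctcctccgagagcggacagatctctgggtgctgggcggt
PSMB9: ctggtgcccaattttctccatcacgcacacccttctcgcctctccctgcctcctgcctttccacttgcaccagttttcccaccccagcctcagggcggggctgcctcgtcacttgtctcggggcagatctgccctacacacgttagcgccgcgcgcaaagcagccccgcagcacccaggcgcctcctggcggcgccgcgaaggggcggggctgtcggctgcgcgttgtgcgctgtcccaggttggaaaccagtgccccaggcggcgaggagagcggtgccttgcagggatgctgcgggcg
TAP1: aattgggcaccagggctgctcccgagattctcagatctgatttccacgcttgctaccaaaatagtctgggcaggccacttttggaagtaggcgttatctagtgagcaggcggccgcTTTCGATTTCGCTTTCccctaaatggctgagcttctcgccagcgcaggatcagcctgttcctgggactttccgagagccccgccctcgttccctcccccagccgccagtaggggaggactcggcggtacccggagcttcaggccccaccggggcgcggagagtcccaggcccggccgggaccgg
PSMB10: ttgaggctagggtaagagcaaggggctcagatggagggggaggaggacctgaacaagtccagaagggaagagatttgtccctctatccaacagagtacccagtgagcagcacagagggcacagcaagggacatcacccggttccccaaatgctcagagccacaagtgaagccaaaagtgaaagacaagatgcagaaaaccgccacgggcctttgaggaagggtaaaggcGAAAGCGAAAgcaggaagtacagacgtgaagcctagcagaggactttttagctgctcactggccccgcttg
PSMB5: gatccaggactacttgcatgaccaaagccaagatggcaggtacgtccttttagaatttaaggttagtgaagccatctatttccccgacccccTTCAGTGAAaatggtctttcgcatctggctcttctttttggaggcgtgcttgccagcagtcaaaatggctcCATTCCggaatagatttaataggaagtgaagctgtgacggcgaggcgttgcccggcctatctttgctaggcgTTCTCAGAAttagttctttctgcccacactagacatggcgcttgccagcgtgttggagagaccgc
PSME2: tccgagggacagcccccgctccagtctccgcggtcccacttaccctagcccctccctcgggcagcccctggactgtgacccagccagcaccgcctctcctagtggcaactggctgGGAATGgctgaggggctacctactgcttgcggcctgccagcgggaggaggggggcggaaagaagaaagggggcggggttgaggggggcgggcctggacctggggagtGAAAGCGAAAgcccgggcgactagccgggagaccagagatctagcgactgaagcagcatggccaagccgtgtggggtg
ERAP2: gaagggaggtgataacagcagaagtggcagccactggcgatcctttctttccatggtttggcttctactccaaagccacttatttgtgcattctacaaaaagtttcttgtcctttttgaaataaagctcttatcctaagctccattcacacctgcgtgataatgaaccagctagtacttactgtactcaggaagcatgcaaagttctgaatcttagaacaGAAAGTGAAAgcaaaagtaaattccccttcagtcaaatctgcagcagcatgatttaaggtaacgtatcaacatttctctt

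The ISRE letters stood in 6 of the 12 member windows, in PSMB8 (start 2), PSMB10, PSME1, PSME2, ERAP1 (start 1) and ERAP2 (start 2), and in 3.57% of the 35116 RefSeq windows searched. In PSMB8 the match was TTTCGCTTTC at positions -4 to 6 counted from the start, and in PSMB10 it was GAAAGCGAAA at -21 to -12. PSME2 held the same 10 letters as PSMB10, GAAAGCGAAA, at -28 to -19, and ERAP2 held GAAAGTGAAA at -30 to -21. PSME1 held TTTCGCTTTC at 6 to 15, and start 1 of ERAP1 held TTTCACTTTC at 3 to 12. No ISRE letters were found in the windows of PSMB9 or PSMB5. PSMB5 was the only constitutive partner with a window, as PSMB6 and PSMB7 had none. The PSMB9 and TAP1 windows run head to head and share 13 bases, and the TAP1 window held 2 overlapping ISRE matches within TTTCGATTTCGCTTTC.

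GAS letters were in 2 member windows, of PSMB8 (start 2) and PSMB5 (start 2), against 7.66% of all windows. The TEAD core was in 4 member windows, of PSMB8 (start 2), PSMB5 (start 2), PSME2 and ERAP1 (start 2), against 14.03% of all windows. PSMB8 and its constitutive partner PSMB5 thus both held GAS and TEAD letters, while the ISRE letters were in the PSMB8 window and not in the PSMB5 window. A match is a description of the letters and not a binding site, and a window without one says nothing about the factor.

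**Figure D1:**
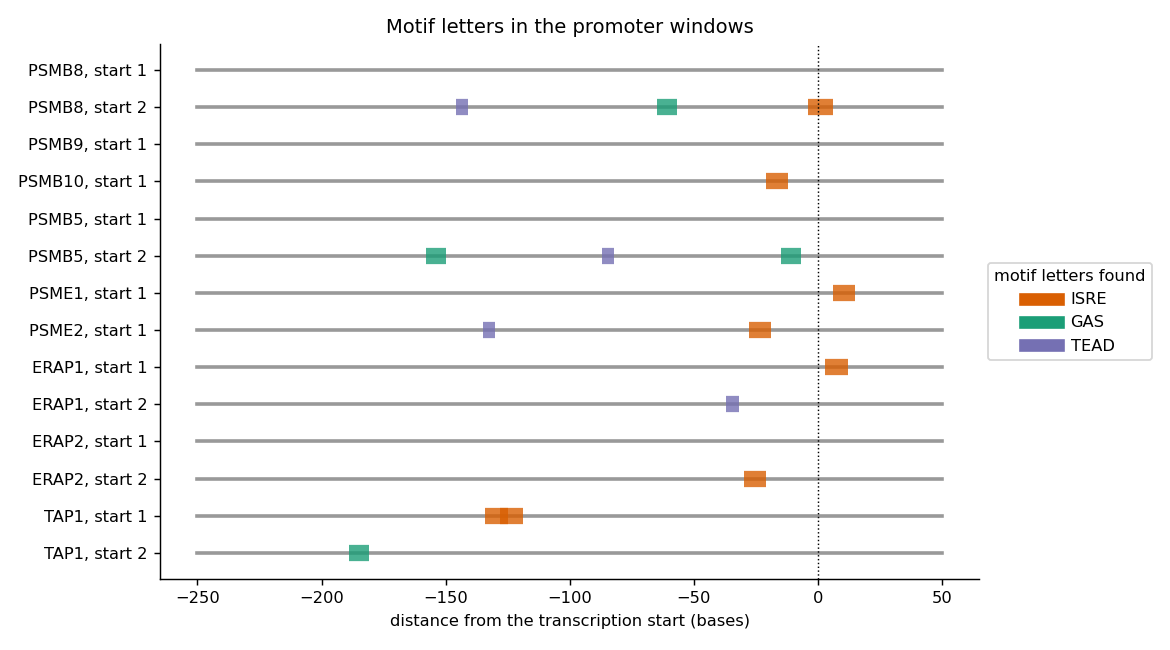
Position of ISRE, GAS and TEAD letters (coloured blocks) in the promoter windows of 8 member genes and TAP1, in bases from the transcription start on the x axis, with 1 row per RefSeq start. The ISRE letters fall in 6 of the 12 member windows, and the PSMB9 row has no match.

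PSMB9 (ENSG00000240065.8, chr6:32844136-32859851, plus strand, GRCh38) encodes the inducible subunit that replaces PSMB6 at the caspase-like site. It had 9.73, 17.6 and 17.0 CPM in the smTEADi libraries, against 30.1, 23.0 and 31.8 CPM in Vehicle, all scaled by TMM. In the other experiment it had 20.4, 17.1 and 18.7 CPM in pTEADi, against 44.9, 40.9 and 37.2 CPM in Control. Both inhibited groups lay below their own controls without overlap, and the highest pTEADi library was at 20.4 CPM against 37.2 CPM for the lowest Control library. PSMB9 fell by 1.14 ± 0.11 on the log2 scale in pTEADi against Control (SE, adjusted p = 5.39e-05, edgeR's quasi-likelihood test with Benjamini-Hochberg adjustment). It fell by 0.93 ± 0.22 in smTEADi against Vehicle (adjusted p = 0.0462, the same test). The smTEADi call was lost when any single library other than Vehicle 2 was left out, with adjusted p between 0.0567 (without smTEADi 1, log2 fold change -0.71) and 0.206 (without Vehicle 3).

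PSMB8 (ENSG00000204264.12, chr6:32840717-32844679, minus strand) encodes the inducible subunit that replaces PSMB5 at the chymotrypsin-like site. Its level was 24.8, 41.3 and 41.9 CPM in smTEADi, against 55.9, 51.5 and 55.1 CPM in Vehicle. It was 35.9, 45.2 and 44.3 CPM in pTEADi, against 60.9, 67.5 and 58.9 CPM in Control. Neither inhibited group overlapped its controls, and the library smTEADi 1 stood well below the other two. The log2 fold change was -0.58 ± 0.11 with pTEADi (adjusted p = 0.0022, edgeR's quasi-likelihood test), which passed the threshold of 0.05. With SW-682 it was -0.59 ± 0.18 and did not pass (adjusted p = 0.076, 95% interval -0.99 to -0.19), and without smTEADi 1 it was -0.38 (adjusted p = 0.0804, edgeR's quasi-likelihood test). The PSMB8 and PSMB9 genes overlap on opposite strands over 139 exon bases. No strand setting is stated, so how reads from those bases were assigned is not known. The deposited PSMB9 counts were whole numbers in every library, from 132 (smTEADi 1) to 643 (Control 1), while those of PSMB8 had fractions.

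PSMB10 (ENSG00000205220.12, chr16:67934506-67936864, minus strand) encodes the inducible subunit that replaces PSMB7 at the trypsin-like site. Its libraries read 10.6, 14.2 and 14.4 CPM in smTEADi, against 21.4, 18.0 and 20.3 CPM in Vehicle. They read 20.2, 18.9 and 18.9 CPM in pTEADi, against 27.0, 27.1 and 19.6 CPM in Control. The smTEADi and Vehicle groups did not overlap, while Control 3 lay within the pTEADi range. PSMB10 missed the threshold in both comparisons, at -0.60 ± 0.15 with SW-682 (adjusted p = 0.0523) and -0.35 ± 0.14 with pTEADi (adjusted p = 0.0788, edgeR's quasi-likelihood test). Without Control 3 the pTEADi value was -0.48 and passed (adjusted p = 0.00782, edgeR's quasi-likelihood test), and without Vehicle 2 the SW-682 value was -0.67 and passed (adjusted p = 0.0412). PSMB10 shares 640 exon bases with the same-strand gene ENSG00000261884, which held 27.6 to 66.3 counts per library.

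**Figure D2:**
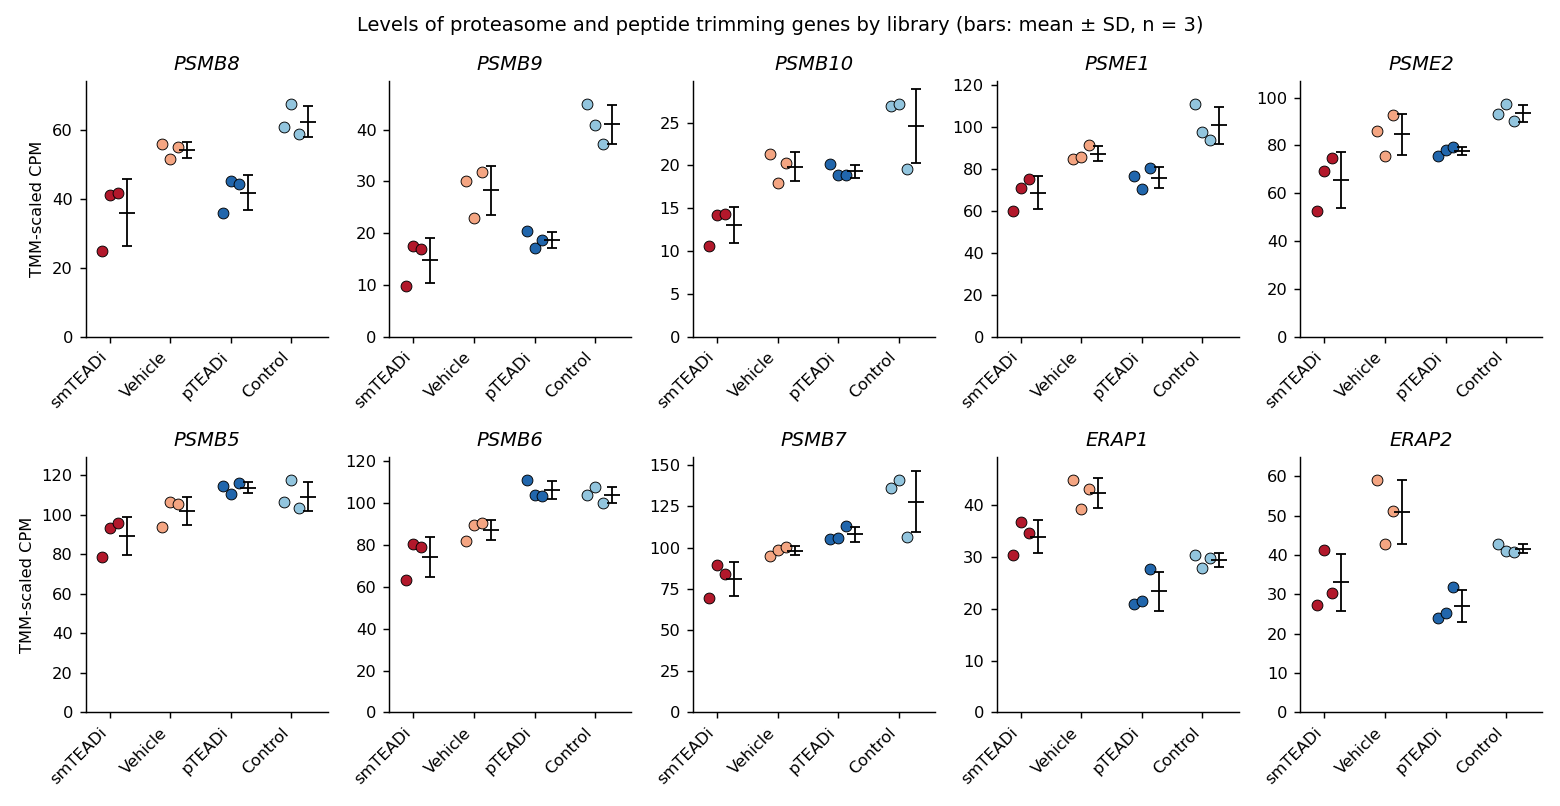
TMM-scaled CPM (y axis) of the 10 genes in each of the 12 libraries, with the mean ± SD of each group (n = 3) beside the points. PSMB9 averaged 18.7 CPM in pTEADi and 41.0 CPM in Control, whereas the PSMB5 and PSMB6 points of these groups overlap.

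The constitutive partners gave no call in either comparison, with edgeR's quasi-likelihood test or DESeq2. In each, 1 of the 3 (PSMB7) had an unadjusted p under 0.05, a mark that 38.2% of all tested genes passed with pTEADi and 27.8% with SW-682. PSMB5, the constitutive chymotrypsin-like subunit, had 115, 111 and 116 CPM in pTEADi, against 107, 118 and 103 CPM in Control. PSMB6, the constitutive caspase-like subunit, had 111, 104 and 103 CPM in pTEADi, against 104, 108 and 100.05 CPM in Control. These groups overlapped for both genes, and the log2 fold changes were 0.06 ± 0.08 for PSMB5 (95% interval -0.12 to 0.24) and 0.03 ± 0.08 for PSMB6 (-0.15 to 0.20). PSMB7, the constitutive trypsin-like subunit, had a log2 fold change of -0.25 ± 0.11 with pTEADi (adjusted p = 0.11, edgeR's quasi-likelihood test). Its 3 pTEADi libraries had 105, 106 and 113 CPM, against 136, 141 and 107 CPM in Control. Control 3 was the low one, as for PSMB10, and without it PSMB7 was at -0.36 and passed (adjusted p = 0.00715, edgeR's quasi-likelihood test).

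With SW-682 all 3 constitutive genes were lower on average. PSMB5 had 78.5, 93.4 and 96.0 CPM in smTEADi, against 93.8, 106 and 106 CPM in Vehicle, and the groups overlapped. PSMB6 had 63.3, 80.4 and 78.9 CPM in smTEADi, against 81.8, 89.6 and 90.5 CPM in Vehicle. PSMB7 had 69.7, 89.5 and 83.8 CPM in smTEADi, against 95.2, 98.7 and 101 CPM in Vehicle. PSMB6 and PSMB7 did not overlap between the groups, and their log2 fold changes of -0.23 ± 0.11 (PSMB6) and -0.28 ± 0.11 (PSMB7) did not pass (adjusted p = 0.216 and 0.143, edgeR's quasi-likelihood test). PSMB5 was at -0.19 ± 0.11 (adjusted p = 0.29, the same test, 95% interval -0.44 to 0.06). Without smTEADi 1 these values were -0.10 for PSMB5, -0.13 for PSMB6 and -0.18 for PSMB7.

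PSME1 and PSME2 encode the alpha and beta subunits of PA28, the ring that opens the barrel and speeds peptide release. PSME1 had 76.7, 70.3 and 80.2 CPM in pTEADi, against 111, 97.7 and 93.8 CPM in Control. PSME2 had 75.7, 77.9 and 79.1 CPM in pTEADi, against 93.1, 97.2 and 90.1 CPM in Control. Both groups were apart for both genes, and both fell, PSME1 by 0.41 ± 0.09 on the log2 scale (adjusted p = 0.00663) and PSME2 by 0.27 ± 0.08 (adjusted p = 0.0248, edgeR's quasi-likelihood test). The PSME2 call was lost without pTEADi 1, 2 or 3 or Control 1 or 2 (adjusted p 0.0506 to 0.0963), and that of PSME1 without pTEADi 2 (adjusted p = 0.0513, edgeR's quasi-likelihood test).

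In the SW-682 experiment PSME1 had 59.7, 71.0 and 75.2 CPM in smTEADi, against 84.4, 85.8 and 91.2 CPM in Vehicle. PSME2 had 52.4, 69.5 and 74.7 CPM in smTEADi, against 85.9, 75.6 and 92.5 CPM in Vehicle. The libraries did not overlap for either gene, and neither passed, at -0.34 ± 0.11 for PSME1 (adjusted p = 0.084) and -0.37 ± 0.14 for PSME2 (adjusted p = 0.131, edgeR's quasi-likelihood test). Without smTEADi 1, PSME2 was at -0.23. PSME2, whose promoter holds the ISRE letters printed above, shares 216 exon bases with the oppositely oriented RNF31 (465 to 652 counts per library).

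ERAP2 (chr5:96875986-96919703, plus strand), which trims peptides with basic amino ends by preference, had 24.0, 25.3 and 31.8 CPM in pTEADi, against 42.9, 41.1 and 40.7 CPM in Control. It had 27.4, 41.3 and 30.3 CPM in smTEADi, against 59.0, 42.7 and 51.2 CPM in Vehicle. Neither pair of groups overlapped, although smTEADi 2 came close to Vehicle 2. ERAP2 fell by 0.62 ± 0.12 on the log2 scale with pTEADi (adjusted p = 0.0023, edgeR's quasi-likelihood test). With SW-682 its value was -0.63 ± 0.17 and missed the threshold (adjusted p = 0.0594, edgeR's quasi-likelihood test). The call appeared there without smTEADi 2 (adjusted p = 0.0439) or without Vehicle 2 (adjusted p = 0.0337, edgeR's quasi-likelihood test).

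ERAP1 (chr5:96760810-96808100, minus strand), which trims long peptides towards the length that class I molecules hold, had 21.0, 21.5 and 27.7 CPM in pTEADi, against 30.4, 27.9 and 29.8 CPM in Control. It had 30.4, 36.8 and 34.5 CPM in smTEADi, against 44.8, 39.2 and 43.1 CPM in Vehicle. The groups were apart in both experiments, by little between pTEADi 3 and Control 2. ERAP1 passed in neither, with log2 fold changes of -0.33 ± 0.12 for pTEADi (adjusted p = 0.0732) and -0.32 ± 0.11 for SW-682 (adjusted p = 0.103, edgeR's quasi-likelihood test). Without pTEADi 3 the pTEADi value was -0.46 and passed (adjusted p = 0.0205, edgeR's quasi-likelihood test). ERAP1 shares 299 exon bases with CAST on the other strand, a gene with 4533 to 8877 counts per library.

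Counted together, 5 of the 10 genes fell and 0 rose with pTEADi, where 13.6% of the 14705 genes tested fell, 12.7% rose and 26.3% changed in either direction. With SW-682, 1 of the 10 fell and 0 rose, where 3.48% of the 14829 genes tested fell, 2.02% rose and 5.5% changed. The pTEADi libraries lay below all Control libraries for 6 members, against 21.7% of tested genes, and the smTEADi libraries lay below all Vehicle libraries for 9 members, against 17.3%. In the other direction, 0 members lay above their controls without overlap in either comparison, against 20.3% of tested genes with pTEADi and 15.7% with SW-682. The smTEADi count was 4 with DESeq2, which called 12.8% of all genes, and 6 when all 4 groups shared 1 estimate of the spread, which called 14.9%. Leaving out single libraries gave 0 to 3 members, in fits that called 0 to 1622 genes. The pTEADi count was 5 with DESeq2, which called 25.4% of all genes. It was 4 with the shared spread, which called 21.8% (PSME2 was lost, adjusted p = 0.117, edgeR's quasi-likelihood test). With single libraries left out it was 3 to 7, lowest without pTEADi 2 (2325 genes called) and highest without Control 3 (4379 genes).

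The effects of the inhibitors on the members were not shown to differ. In a fit of all 12 libraries, 0 of the 10 members passed for the difference (pTEADi minus Control) minus (smTEADi minus Vehicle), where 2 of 15460 genes (0.0129%) did. The smallest adjusted p among members was 0.722, for PSMB6 (edgeR's quasi-likelihood test). An unadjusted p under 0.05 was found for 0 members, beside 7.13% of all tested genes, and DESeq2 and limma-voom also called 0 members. For PSMB9 the difference was -0.20 ± 0.26 on the log2 scale, with a 95% interval of -0.76 to 0.36, and leaving out single libraries gave -0.43 (without smTEADi 1) to -0.05 (without smTEADi 2). For PSMB8 it was 0.01 ± 0.22, with an interval of -0.47 to 0.49, and -0.20 without smTEADi 1. With single libraries left out, 0 members passed and at most 1 had an unadjusted p under 0.05. These intervals are wide enough to hold differences nearly as large as the PSMB8 effects themselves.

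**Figure D3:**
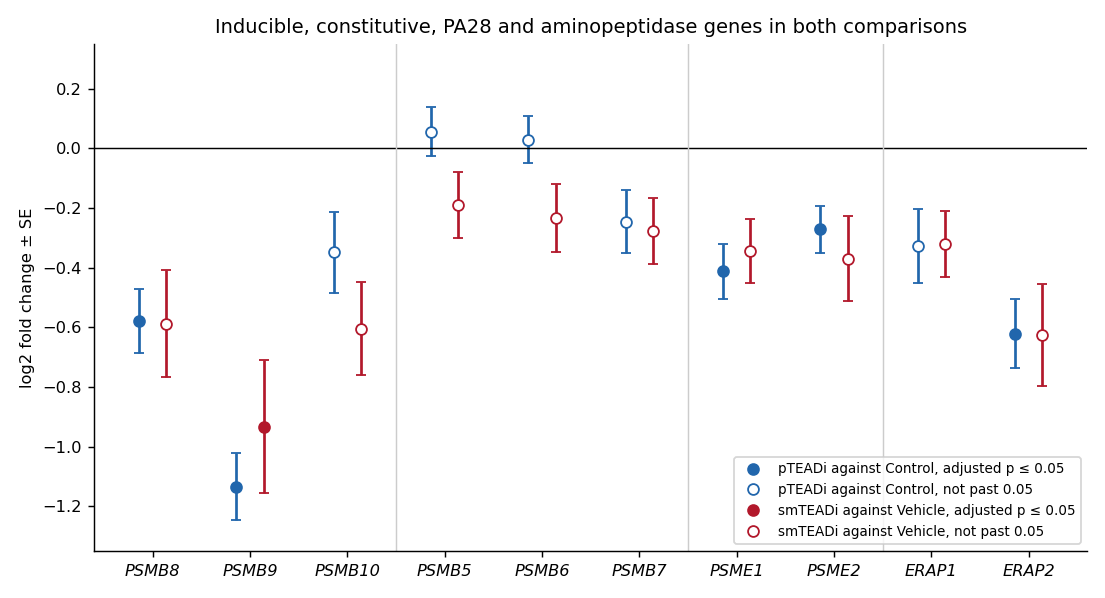
log2 fold change ± SE (y axis) of the 10 genes with pTEADi against Control (blue) and smTEADi against Vehicle (red), with filled points for an adjusted p of at most 0.05. The 5 filled blue points are PSMB8, PSMB9, PSME1, PSME2 and ERAP2, and the filled red point is PSMB9.

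Because each inducible subunit takes the place of 1 constitutive partner, their counts were also compared within each library, which needs no scaling between libraries. PSMB9 had 15.4, 21.9 and 21.5 counts per 100 counts of PSMB6 in smTEADi, against 36.8, 25.6 and 35.1 in Vehicle. It had 18.3, 16.4 and 18.1 in pTEADi, against 43.2, 38 and 37.2 in Control. The groups did not overlap in either experiment, and the log2 ratio differed by -0.73 with SW-682 and by -1.16 with pTEADi (exact two-sided permutation test, p = 0.1 in both, the smallest that 3 against 3 libraries can give). Without smTEADi 1 the SW-682 difference was -0.56, and without smTEADi 3 it was -0.80 (exact permutation p = 0.2 each).

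PSMB8 had 31.6, 44.2 and 43.6 counts per 100 counts of PSMB5 in smTEADi, against 59.6, 48.5 and 52.2 in Vehicle. It had 31.4, 40.9 and 38.2 in pTEADi, against 57.1, 57.4 and 57.0 in Control. These groups were also apart, with log2 differences of -0.43 for SW-682 and -0.64 for pTEADi (exact permutation p = 0.1 each). Without smTEADi 1 the SW-682 difference was -0.28. PSMB10 had 15.2, 15.9 and 17.1 counts per 100 counts of PSMB7 in smTEADi, against 22.4, 18.2 and 20.2 in Vehicle, a difference of -0.33 on the log2 scale without overlap (exact permutation p = 0.1). It had 19.2, 17.9 and 16.7 in pTEADi, against 19.8, 19.2 and 18.4 in Control. Here the groups overlapped and the difference was -0.10 (exact permutation p = 0.2). It was -0.05 without pTEADi 3 and -0.15 without pTEADi 1, when the groups no longer overlapped (exact permutation p = 0.1, the smallest that 2 against 3 libraries can give).

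**Figure D4:**
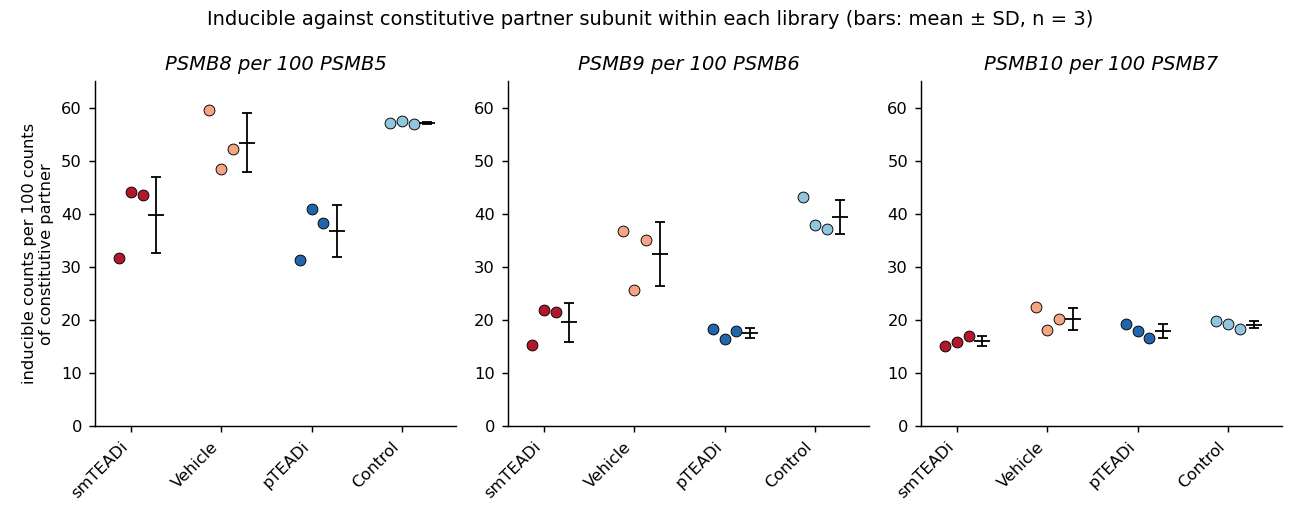
Counts of each inducible subunit per 100 counts of its constitutive partner (y axis) in each library, with the mean ± SD of each group (n = 3). PSMB9 per 100 PSMB6 is at 17.6 in pTEADi and 39.5 in Control, while the pTEADi and Control points of PSMB10 per 100 PSMB7 overlap.

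To compare levels between genes, CPM was divided by the length of the canonical transcript. On this scale PSMB9 made up 13.7% ± 2.25 of the sum of PSMB9 and PSMB6 in smTEADi and 20.8% ± 3.12 in Vehicle, and 12.5% ± 0.64 in pTEADi and 24.2% ± 1.49 in Control (SD, n = 3 each). PSMB8 made up 26.9% ± 3.62 of the sum of PSMB8 and PSMB5 in smTEADi and 33.1% ± 2.31 in Vehicle, and 25.4% ± 2.57 in pTEADi and 34.7% ± 0.09 in Control. The share of PSMB10 in its pair was 13.9% ± 0.72 in smTEADi and 16.9% ± 1.47 in Vehicle, and 15.3% ± 0.92 in pTEADi and 16.2% ± 0.48 in Control. The constitutive subunit was thus the larger part of each pair in every group. These shares depend on the length used: with the union of all annotated exons, PSMB9 was at 7.09% in pTEADi and 14.6% in Control, and PSMB8 at 14.1% in pTEADi and 20.3% in Control.

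Across the 4 groups, the mean CPM of PSMB8, PSMB9, PSMB10, PSME1 and PSME2 had the same order, from smTEADi through pTEADi and Vehicle to Control. For PSMB8 these means were 36.0 ± 9.69, 41.8 ± 5.12, 54.2 ± 2.31 and 62.5 ± 4.52 CPM in that order (SD, n = 3 each), and the neighbours smTEADi and pTEADi overlapped. PSMB10 averaged 19.3 ± 0.76 CPM in pTEADi and 19.9 ± 1.74 CPM in Vehicle, neighbours that also overlapped. ERAP1 had another order, with 23.4 ± 3.78 CPM in pTEADi, 29.4 ± 1.33 in Control, 33.9 ± 3.21 in smTEADi and 42.4 ± 2.91 in Vehicle, so both groups of the SW-682 experiment stood above those of the pTEADi experiment. Levels across the experiments come from separately deposited tables scaled together here, and no test was made between them. Within smTEADi, library 1 was the lowest for 10 of the 10 members. It was also lowest in the mean log2 CPM of the other 20S subunits, at 6.11 against 6.48 and 6.36 in libraries 2 and 3. The MHC class I and peptide loading genes averaged 6.65 in it, against 7.03 and 6.98, so its low values were not particular to the members.

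The structural genes of the proteasome outside the members gave no call in edgeR's quasi-likelihood test when each comparison was fitted alone. Of the 11 other subunits of the 20S barrel, 0 passed in either comparison, with a median log2 fold change of -0.16 with pTEADi and -0.33 with SW-682, beside medians of -0.0007 and 0.01 over all genes tested. All 11 values were negative in each comparison. Of these 11, 3 had an unadjusted p under 0.05 with pTEADi and 8 with SW-682, beside 38.2% and 27.8% of all tested genes. DESeq2 called 0 and 1 of them in that order, beside 25.4% and 12.8% of all genes. With 1 spread shared by all 4 groups, edgeR's test called 0 and 4 of them, beside 21.8% and 14.9% of all genes. Of the 19 subunits of the 19S particle, which recognises and unfolds tagged proteins, 0 passed in either comparison, the medians were -0.07 with pTEADi and -0.14 with SW-682, and 0 and 4 had an unadjusted p under 0.05, shares below those of all tested genes. DESeq2 and edgeR's test with the shared spread called 0 of these 19 in both. The tissue-restricted subunits PSMB11 (thymus) and PSMA8 (testis) had at most 2 counts and 0 counts.

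Of 13 other activators, inhibitors and assembly factors, 2 fell and 0 rose with pTEADi, a share near the 13.6% of all tested genes that fell. The 2 were PSME4, the PA200 activator, at -0.36 ± 0.09 (adjusted p = 0.014), and the assembly chaperone PSMG3, at -0.25 ± 0.08 (adjusted p = 0.0472, edgeR's quasi-likelihood test). The PSME4 call was lost without pTEADi 1, pTEADi 2 or Control 1, and the PSMG3 call without any single library other than Control 3. With SW-682, 0 of the 13 passed edgeR's test. Of the 13, 4 had an unadjusted p under 0.05, a share near the 27.8% of all tested genes. DESeq2 called 1, beside 12.8% of all genes, and edgeR's test with the shared spread called 3, beside 14.9%.

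Among 8 other peptidases that destroy or trim peptides, 2 fell and 1 rose with pTEADi, where 13.6% of all tested genes fell and 12.7% rose. THOP1, a cytosolic endopeptidase that degrades class I peptides, fell by 0.53 ± 0.10 on the log2 scale (adjusted p = 0.00188), and its relative NLN fell by 0.35 ± 0.11 (adjusted p = 0.0353, edgeR's quasi-likelihood test). LNPEP, the endosomal aminopeptidase of the family of ERAP1 and ERAP2, rose by 0.30 ± 0.10 (adjusted p = 0.0408, edgeR's quasi-likelihood test). THOP1 held its call without any 1 library, NLN lost it without 5 of 6 libraries (all but Control 3), and LNPEP without pTEADi 2, pTEADi 3, Control 1 or Control 2. With SW-682, 0 of the 8 passed and 5 had an unadjusted p under 0.05, beside 27.8% of all tested genes. DESeq2 called 3 (1 rose and 2 fell), beside 12.8% of all genes. With the shared spread, edgeR's test called 3 (0 rose and 3 fell), beside 14.9% of all genes. In the fit of this experiment alone, THOP1 was at -0.62 ± 0.16 (adjusted p = 0.051, edgeR's quasi-likelihood test).

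The genes that transport and load these peptides were measured as a list of 14, of which HLA-G had 0 counts. Of 13 tested MHC class I and peptide loading genes, 12 fell and 0 rose with pTEADi, where 13.6% of all tested genes fell. Their median log2 fold change was -0.67. With SW-682, 4 fell and 0 rose, where 3.48% of all tested genes fell. The median was then -0.46, and all 13 values were negative. The SW-682 count depended on the method. DESeq2 called 10 as lower and 0 as higher, beside 12.8% of all genes in either direction. With the shared spread, edgeR's test called 9 and 0, beside 14.9% of all genes. Leaving out single libraries gave 0 to 5. TAP1, the divergent neighbour of PSMB9 and a subunit of the peptide transporter, had 96.2, 90.3 and 90.1 CPM in pTEADi, against 150.2, 174 and 138 CPM in Control. It had 59.0, 80.9 and 81.3 CPM in smTEADi, against 116, 107 and 130.3 CPM in Vehicle. TAP1 did not overlap between groups in either experiment, and it fell by 0.74 ± 0.10 on the log2 scale with pTEADi (adjusted p = 0.000289) and by 0.67 ± 0.14 with SW-682 (adjusted p = 0.0389, edgeR's quasi-likelihood test). Other SW-682 calls were HLA-C at -0.57 ± 0.13 and TAP2 at -0.46 ± 0.11. The SW-682 call of TAP1 was lost without smTEADi 2, smTEADi 3, Vehicle 1 or Vehicle 3, and those of HLA-C and TAP2 without any single library other than Vehicle 2. HLA-E was near its controls in both comparisons, at -0.08 ± 0.10 with pTEADi and -0.003 ± 0.10 with SW-682.

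**Figure D5:**
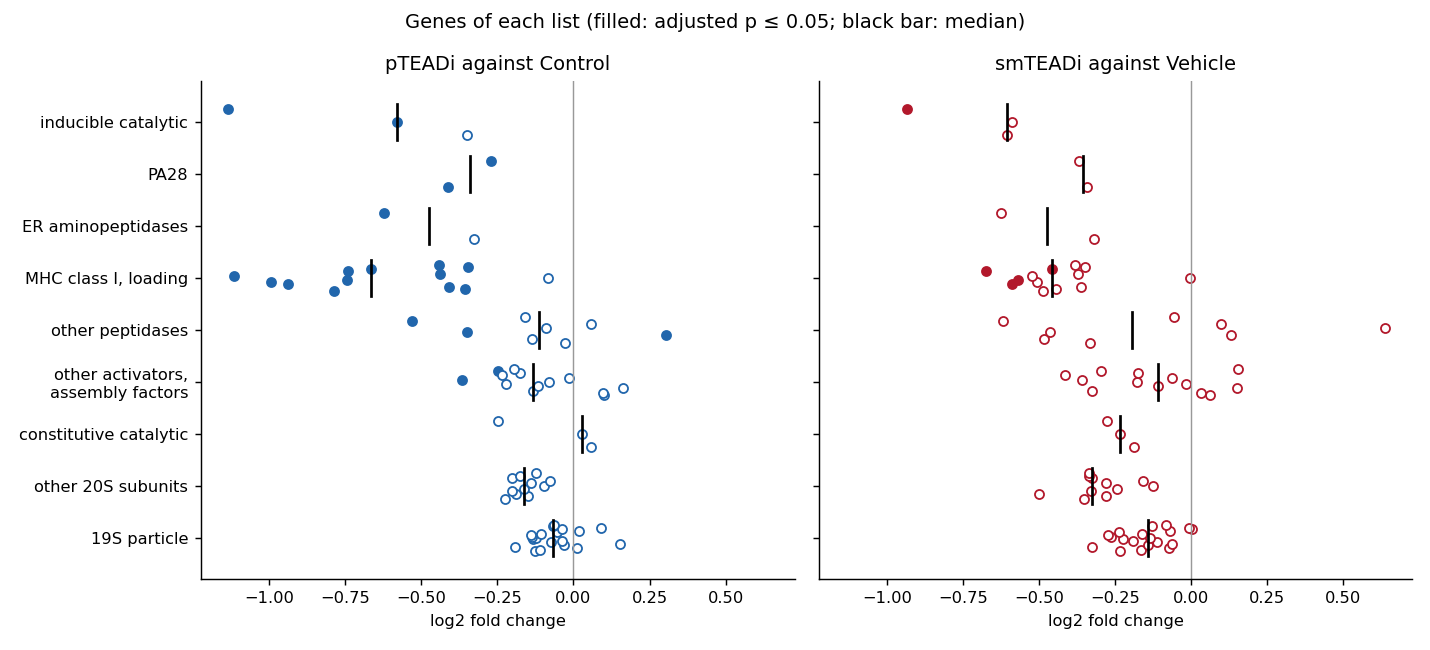
log2 fold change (x axis) of each gene of 9 gene lists with pTEADi against Control (left) and smTEADi against Vehicle (right), with filled points for an adjusted p of at most 0.05 and a black bar at the median. The medians of the MHC class I genes are -0.67 (left) and -0.46 (right), beside -0.16 and -0.33 for the other 20S subunits.

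Known regulators of the inducible subunits were also measured. Of 10 tested, 5 fell and 1 rose with pTEADi, where 13.6% of all tested genes fell and 12.7% rose. IRF1, the factor that binds ISRE letters after interferon gamma, fell by 1.02 ± 0.16 on the log2 scale (adjusted p = 0.000834), and NLRC5, the MHC class I transactivator, fell by 0.71 ± 0.11 (adjusted p = 0.00089, edgeR's quasi-likelihood test). IRF9 was called too, at -0.46 ± 0.10 (adjusted p = 0.00507), and so was STAT2 at -0.32 ± 0.09 (adjusted p = 0.0206, edgeR's quasi-likelihood test). JAK1, the kinase at the interferon receptors, rose by 0.33 ± 0.11 (adjusted p = 0.037, edgeR's quasi-likelihood test). The STAT2 call was lost without pTEADi 2, pTEADi 3 or Control 1 and the JAK1 call without any single library other than Control 3. With SW-682, JAK1 rose by 0.46 ± 0.11 (adjusted p = 0.0475, edgeR's quasi-likelihood test), a call lost without any 1 of the 6 libraries, and 0 of the 10 fell. Of the 10, 7 had an unadjusted p under 0.05 with SW-682, beside 27.8% of all tested genes. They were JAK1 and JAK2 (0.41 ± 0.11) on the positive side and 5 on the negative side. IRF1 was then at -0.51 ± 0.14 (adjusted p = 0.0635) and NLRC5 at -0.85 ± 0.24 (adjusted p = 0.0671, edgeR's quasi-likelihood test). DESeq2 called 5 of the 10 as lower and 2 as higher with SW-682, beside 12.8% of all genes in either direction. With the shared spread, edgeR's test called 4 and 2, beside 14.9% of all genes. IFNG, the gene of interferon gamma, had 0 counts in all 12 libraries, and IFNB1 at most 1 count. Of 8 interferon genes, 2 were tested and 0 passed in either comparison. IFNE, an epithelial type I interferon, had 5.92 to 7.17 CPM in smTEADi and 7.54 to 8.79 CPM in Vehicle, lower without overlap at -0.35 ± 0.17 on the log2 scale (adjusted p = 0.215), and 6.30 to 6.71 CPM in pTEADi and 4.16 to 7.05 CPM in Control (adjusted p = 0.676, edgeR's quasi-likelihood test). IFNA1 stayed under 2 CPM in all libraries.

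Of 4 regulators of the constitutive proteasome genes, 2 rose and 0 fell with pTEADi, where 12.7% of all tested genes rose. DDI2, the protease that activates the transcription factor encoded by NFE2L1, rose by 0.49 ± 0.11 on the log2 scale (adjusted p = 0.00589), and NFE2L2 rose by 0.50 ± 0.15 (adjusted p = 0.0276, edgeR's quasi-likelihood test). The NFE2L2 call was lost without pTEADi 2, pTEADi 3 or Control 1. NFE2L1, which drives proteasome genes when proteasome activity is low, was at 0.13 ± 0.10 (adjusted p = 0.352, edgeR's quasi-likelihood test). With SW-682, 0 of the 4 passed edgeR's test or DESeq2, and 1 had an unadjusted p under 0.05, beside 27.8% of all tested genes.

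The genes whose profiles over the 12 libraries were most like those of the inducible subunits were sought among 11173 genes with a mean of at least 5 CPM, by the root mean square difference of centred log2 CPM. Closest to PSMB9 were CKS1B (0.12), RFC4 (0.12) and MCM3 (0.14). Closest to PSMB8 were C1orf112 (0.12), DONSON (0.12) and SNRPE (0.12), and closest to PSMB10 were RPL14 (0.10), MARVELD1 (0.10) and SNHG17 (0.11). TAP1 ranked 21 for PSMB8, 95 for PSMB9 and 191 for PSMB10. The nearest of the other members was PSME2 for PSMB8 (rank 68), PSMB8 for PSMB9 (rank 305) and PSMB7 for PSMB10 (rank 67). All profiles share the same libraries and treatments, so the ranks are a description.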

How the data were processed

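Poly-A RNA from 12 samples of Cal33 xenograft tumour was sequenced in paired reads. The authors' expected counts per gene came from RSEM 1.3.1 after STAR 2.7.9a alignment against GRCh38, per the labels and the submitters' processing notes. The deposited expected counts were not scaled, and each was rounded to a whole number here (6.77% to 7.27% of a library's values had a fraction). Strand setting and removal of host reads are not given in the sources used here.

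Symbols and positions came from Gencode 44 (GRCh38). Counts were tested in R 4.3.3 with edgeR 4.0.16 (filterByExpr with a minimum count of 10, TMM, two-sided quasi-likelihood F test, Benjamini-Hochberg adjusted p of 0.05 over all genes tested). DESeq2 1.42.0 and limma 3.58.1 (voom) were alternatives. Printed CPM of genes is TMM-scaled over all 12 libraries, and summed marker CPM is not. The SE is the log2 fold change divided by the square root of F. Log2 ratios of partner subunits used 0.5 added counts. The union of exons as gene length was an alternative chosen after seeing the data. The fitting steps were tested on simulated data.

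Named genes were all 10 members, up to 4 genes of each other list with the smallest p, TAP1, and the 3 closest profiles of each inducible subunit. Genes beyond these (STAT2, JAK1 and CD14 with pTEADi, HLA-E, IFNG, IFNB1, PTPRC, TYROBP, KDR, EMCN, PSMB11 and PSMA8) were named after their values were seen. So were KRT5, KRT14 and KRT6A. Some list members that the rule names are not reported here. The members and lists were chosen with earlier results of these data known. No 2 libraries of a group were duplicates.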

Additional observations from a re-analysis of the deposited data

How the results depend on the processing

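The members kept the sign of their pTEADi and SW-682 effects under every alternative run. At a threshold of 0.01, genes called were 2138 with pTEADi (3864 at 0.05), 0 with SW-682 (816) and 0 for the difference (2), and 0 members were called with SW-682 (1). Without the low-count filter SW-682 called 2101 genes and 4 members, and the difference 377 genes. DESeq2 called 1893 genes and 4 members with SW-682 and 43 genes for the difference. With 1 spread shared by all 4 groups, SW-682 called 2303 genes and 6 members. Leaving out 1 library gave 2325 to 4379 genes and 3 to 7 members with pTEADi, 0 to 1622 genes and 0 to 3 members with SW-682, and 0 to 20 genes for the difference. The fewest with pTEADi were without pTEADi 2 (2325) and Control 1 (2573). SW-682 gave 0 genes without smTEADi 3, Vehicle 1 or Vehicle 3, 335 without smTEADi 1 and 402 without smTEADi 2. The causes were not tested. A replicate block on the shared numbers left 3707 genes and 5 members with pTEADi, 0 genes and 0 members with SW-682 (PSMB9, adjusted p = 0.0919, edgeR's quasi-likelihood test) and 0 genes for the difference; libraries with the same number did not deviate together (correlation -0.109 to 0.116 across genes), so the numbers were not taken as pairs. At these depths PSMB9 had 132 counts in its lowest library, smTEADi 1.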
